A study of Arabidopsis thaliana with 11 samples.

Results

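AGL24 (AT4G24540) and FD (AT4G35900) encode transcription factors that promote flowering. AGL24 and FD were taken by gene name from the probe table of the ATH1 array, an Affymetrix GeneChip for Arabidopsis. Among the 22810 probe sets of the array, 13513 were paired with 1 gene, and 2 of these carried the name AGL24 or FD. AGL24 was read by probe set 254130_at and FD by probe set 253108_at, so each gene had a single measurement per array. Transcript levels came from Arabidopsis thaliana wild type, accession Columbia-0, in 3 tissues. Flowers (4 arrays) were developed flowers together with closed buds, taken on day 29 after germination. Stems (4 arrays) were the still elongating top 2 inches, stripped of siliques and pedicels, also on day 29. Leaves (3 arrays) were still expanding and were taken on day 15. No plant carried a mutation or a transgene, and all grew at a stated 25 °C (day) and 20 °C (night), set in a growth chamber or approximated in a greenhouse. Days had 16 h of light where the labels give it. Whether a replicate was 1 plant or a pool is not stated, and the p-values reflect only how far these samples differed, which may be technical.

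AGL24 is a MADS-box protein of the shoot apex. It acts there with SOC1, another MADS-box protein, to switch on floral meristem genes such as LFY, and the floral identity gene AP1 represses it once a flower primordium forms. SVP, its closest relative, delays flowering instead. FD is a basic leucine zipper (bZIP) protein of the shoot apex. It is brought together by 14-3-3 proteins with FT, the flowering signal that travels from the leaves, and then activates AP1. TFL1, a relative of FT, uses FD as a partner to keep the inflorescence apex from turning into a flower.

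The labels and the arrays differed on a few points that touch these results. The median deposited signal was 192.1 to 251.3 per array. Arrays of 1 tissue had a Pearson's r of at least 0.904 (a description over probe sets, which are no replicates), and arrays of different tissues at most 0.824. As a description, marker genes went with the tissue labels. All 5 flower markers (EMS1, AMS, ATA27, PLIM2a and the anther gene AT5G07230) were called higher in flower than in stem and in leaf. Of all tested probe sets, 9.85% and 9.17% were called so. AMS, ATA27, PLIM2a and AT5G07230 reached the signal minimum of 100 in flower arrays alone, so their calls carry no weight. The stem had 3 measured secondary wall markers of 6 listed (IRX15, IRX15-L and GUT2). All 3 were called higher in stem than in leaf and lower in flower than in stem. The shares of all tested probe sets were 9.33% and 8.10%. IRX15 reached 100 in stem arrays alone, so its calls carry no weight either. All 5 photosynthesis markers were called lower in flower than in leaf, as were 9.28% of tested probe sets. In stem against leaf 0 of 5 were called, beside 18.7% of tested probe sets. With GapC scaling 4 of the 5 were called lower in flower than in leaf. Of 7 genes listed for the shoot meristem, where AGL24 and FD act, CLV3 was the single one with a named probe set, at 10.4 to 72.9 in every array, under the signal minimum of 100. Stem replicate 3 stood apart in the ratio of 3' to 5' signal for control transcripts, 12.2 for actin against 1.83 to 8.23 in the other arrays, and 13.0 for GAPDH against 1.94 to 5.45. Stem replicate 4 is assigned to the greenhouse by its title code and to a growth chamber by its protocol text, so it was left out of comparisons of sites. The scaling factors stated for replicates 2 and 3 of stem, and of flower, matched the other array of the pair, and these 4 arrays are named as labelled. Leaf RNA was prepared without the silica column used for stem and flower, so tissue, age and RNA preparation cannot be told apart in the contrasts with leaf.

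AGL24 was at its highest in the stem, intermediate in the leaf and lowest in the flower. Its normalised intensity, on the linear scale, was 96.9, 111.5, 126.9 and 80.2 in flower replicates 1 to 4. In stem replicates 1 to 4 it was 382.9, 336.5, 372.5 and 530.5, and in leaf replicates 1 to 3 it was 244.7, 237.4 and 205.5. On this scale the 3 tissues formed separate ranges, with no array of one tissue inside the range of another. Separate ranges were common among all tested probe sets. They were found for 33.1% between flower and stem, 41.9% between flower and leaf and 39.3% between stem and leaf. The share with all 3 tissues separate was not counted. The means were 103.9 ± 20.0 in flower (SD, n = 4), 405.6 ± 85.6 in stem (SD, n = 4) and 229.2 ± 20.8 in leaf (SD, n = 3). In the bulk tissue, fewer cells with AGL24 and less AGL24 RNA per cell cannot be told apart. The deposited intensity before quantile normalisation kept the order, with means of 119.5 ± 20.7 in flower (SD, n = 4), 379.8 ± 95.9 in stem (SD, n = 4) and 211.7 ± 19.8 in leaf (SD, n = 3). With arrays scaled to GapC the flower arrays (95.3 to 152.9) overlapped the leaf arrays (122.6 to 182.8), and the stem arrays (346.5 to 484.3) lay above both.

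FD had no such order. Its normalised intensity was 79.2, 109.7, 54.3 and 114.8 in flower replicates 1 to 4. It was 161.7, 75.3, 9.74 and 239.0 in stem replicates 1 to 4, and 50.7, 144.7 and 105.3 in leaf replicates 1 to 3. The lowest and the highest of the 11 values both came from stem, and the ranges of flower and leaf lay inside that of stem. FD averaged 89.5 ± 28.2 in flower (SD, n = 4), 121.4 ± 100.1 in stem (SD, n = 4) and 100.2 ± 47.2 in leaf (SD, n = 3). The signal minimum of 100 was met in 6 of 11 arrays by FD and in 9 of 11 by AGL24, and both passed the filter of at least 3 such arrays.

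**Figure D1:**
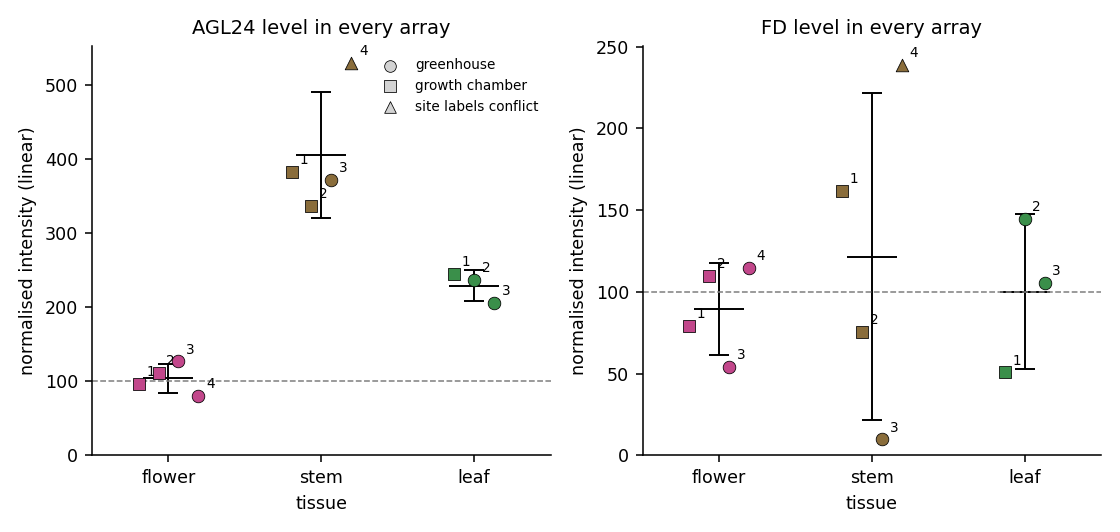
Normalised intensity (linear axis from 0) of AGL24 and FD in each array by tissue, with replicate numbers, the mean as a bar and the SD as an error bar, and circles, squares and triangles for greenhouse, growth chamber and conflicting site labels. The dashed line is the signal minimum of 100; AGL24 forms 3 separate ranges on this scale, whereas the FD values of stem run from 9.74 to 239.0 and span those of flower and leaf.

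Flower and stem were harvested on the same day and their RNA was prepared alike. Between them AGL24 fell in flower. Its log2 difference was -1.68 ± 0.19 (SE; 95% confidence interval -2.09 to -1.27), or 3.20-fold on the scale of log2(intensity + 32). The adjusted p was 1.5e-05 in limma, with Benjamini-Hochberg adjustment over 17526 tested probe sets. The highest flower array (126.9) lay under the lowest stem array (336.5), and the exact permutation test gave p = 0.0286, the smallest that 4 against 4 arrays allow (two-sided). A probe set was called at an adjusted p under 0.05 and a difference of at least 1 log2 unit. By this rule 18.0% of all tested probe sets were called between flower and stem, 9.85% with flower higher and 8.10%, like AGL24, with flower lower. A larger absolute difference than that of AGL24 was found for 6.99% of tested probe sets. An adjusted p under 0.05 at any fold with flower lower was found for 17.4%, and ranges that did not overlap for 33.1%. The AGL24 difference kept its call with every scaling, pseudocount, filter and left-out array that was tried, between -1.95 and -1.30 log2 units.

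FD differed between flower and stem by -0.06 ± 0.49 (SE) log2 units, with an adjusted p of 0.939 in limma. The 95% interval ran from -1.10 to 0.985, that is from 0.465 to 1.98 times the stem value of intensity + 32. A near 2-fold difference of that quantity in either direction lay within it. At so dim a signal the added 32 shrinks ratios, so the fold of FD intensity itself can be larger. Without stem replicate 3 the difference was -0.59 ± 0.37 (SE), with an adjusted p of 0.236 in limma, and the interval was -1.38 to 0.21. The sign of the FD difference turned with the scaling, at 0.20 with arrays scaled to GapC and 0.15 with trimmed mean scaling alone, where the medians of all tested probe sets were 0.17 and 0.145.

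In flower against leaf AGL24 had a log2 difference of -0.95 ± 0.21 (SE; interval -1.39 to -0.51). Its adjusted p was 0.00281 in limma, but the difference missed the minimum of 1 log2 unit and was not called. Of the tested probe sets, 18.5% were called in this contrast (9.17% higher and 9.28% lower in flower), and 16.1% had an adjusted p under 0.05 at any fold with flower lower. The highest flower array (126.9) lay under the lowest leaf array (205.5), and ranges did not overlap for 41.9% of tested probe sets. The exact permutation test gave 0.0286, the smallest p that 4 against 3 arrays allow (two-sided). This difference depended on the scaling. With arrays scaled to GapC, the glycolytic control gene named in the labels, it was -0.17 log2 units with an adjusted p of 0.573. The median of all tested probe sets was then 0.70, against -0.02 after quantile normalisation, so relative to that median AGL24 stood at -0.87 in the first scale and -0.93 in the second.

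FD differed by -0.09 ± 0.53 (SE) log2 units between flower and leaf, with an adjusted p of 0.921 in limma. The interval was -1.21 to 1.04. Its sign turned to 0.65 with arrays scaled to GapC and to 0.20 with trimmed mean scaling, where the median of all probe sets was 0.70 and 0.14.

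In stem against leaf AGL24 had a log2 difference of 0.73 ± 0.21 (SE; interval 0.29 to 1.17), with stem higher. This was 1.66-fold on the scale of log2(intensity + 32). Its adjusted p was 0.0138 in limma and, being under 1 log2 unit, the difference was not called. In this contrast 18.7% of tested probe sets were called (9.33% higher and 9.35% lower in stem), and 15.9% had an adjusted p under 0.05 at any fold with stem higher. The lowest stem array (336.5) lay above the highest leaf array (244.7), and 39.3% of tested probe sets had ranges that did not overlap. The exact permutation test gave 0.0286, the smallest p for these numbers (two-sided). With arrays scaled to GapC the difference was 1.24 (adjusted p = 9.7e-04) and was called, while the median of all tested probe sets was 0.46, against -0.04 after quantile normalisation. The adjusted p was above 0.05 with site as a covariate (0.59 log2 units, adjusted p = 0.0598) and without leaf replicate 3 (0.66, adjusted p = 0.0612).

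FD differed between stem and leaf by -0.03 ± 0.53 (SE) log2 units, with an adjusted p of 0.976 in limma and an interval of -1.16 to 1.10. Without stem replicate 3 the difference was 0.50 ± 0.39 (SE), with an adjusted p of 0.359 in limma and an interval of -0.35 to 1.35. For FD, then, no order of the 3 tissues stood above the spread between arrays. A fall of 1 log2 unit in the first-named tissue, on the scale of log2(intensity + 32), lay within each of the 3 intervals. For AGL24 each neighbouring pair, flower with leaf and leaf with stem, was separated by an adjusted p under 0.05 without reaching 1 log2 unit, and only the 2 ends, flower and stem, were called apart. Stem over leaf over flower, with each step at an adjusted p under 0.05, was found for 78 of 17526 tested probe sets (0.445%). This order was taken from AGL24, so its place among them is no test. Stem over both leaf and flower, at the same limit, was found for 8.36%. AGL24 missed the stricter order with GapC scaling (flower against leaf, adjusted p = 0.573 in limma). It also missed it with site as a covariate (stem against leaf, adjusted p = 0.0598 in limma).

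**Figure D2:**
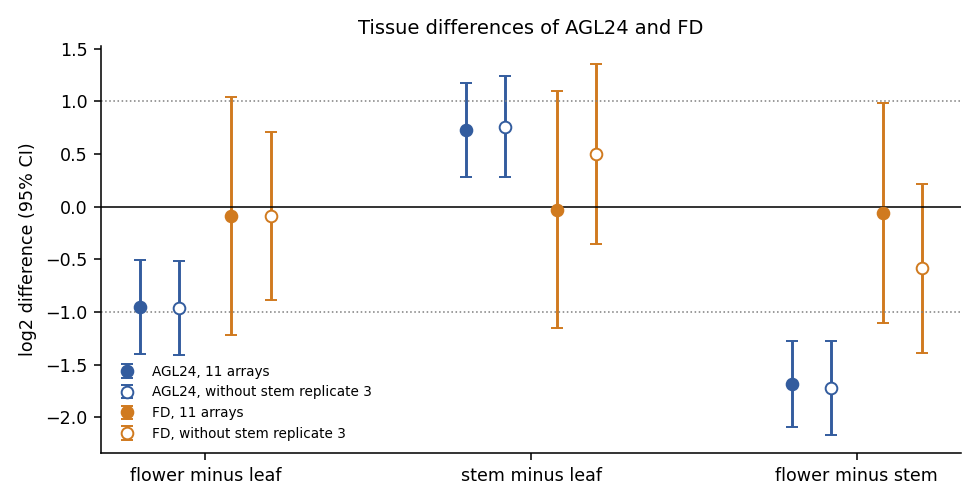
Log2 differences with 95% confidence intervals for AGL24 and FD in the 3 tissue contrasts, from all 11 arrays (filled points) and without stem replicate 3 (open points); dotted lines mark 1 log2 unit. AGL24 stays near -1.68 and -1.72 in flower minus stem, while FD moves from -0.06 to -0.59 and its intervals include 0.

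**Figure D3:**
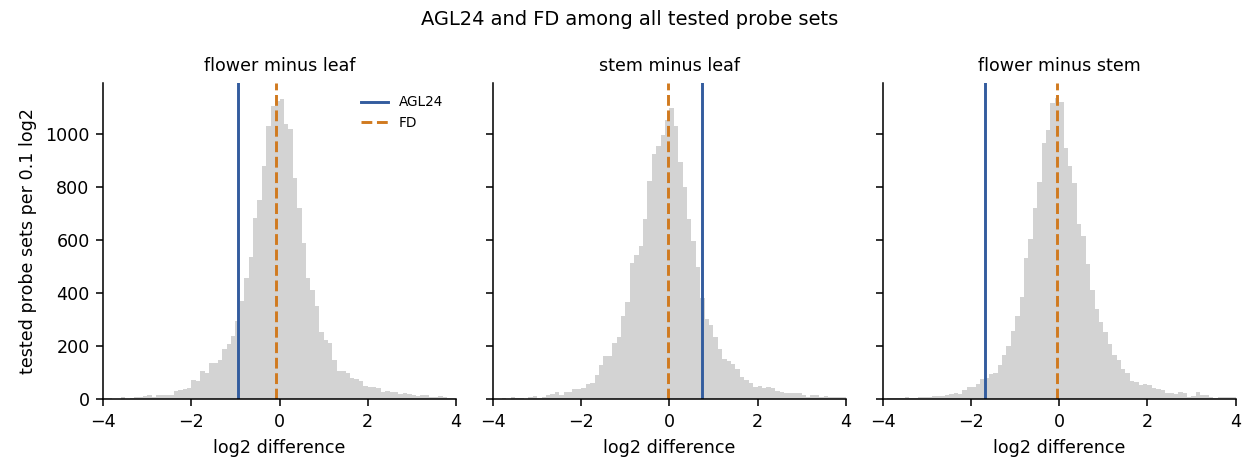
Number of tested probe sets per 0.1 log2 unit of difference in each tissue contrast (grey; the axis shows -4 to 4), with AGL24 as a solid line and FD as a dashed line. AGL24 lies in the lower tail in flower minus stem, where 6.99% of probe sets differ by more in either direction, and FD lies near the centre in all 3.

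Whether AGL24 and FD differed in their tissue differences was tested within arrays, and the test did not pass. The within-array difference, AGL24 less FD on the log2 scale, shifted by -1.62 in flower against stem (exact permutation test, two-sided, p = 0.0286, n = 4 each; adjusted p = 0.0857 over 3 comparisons). The shift was -0.865 in flower against leaf (adjusted p = 0.171) and 0.755 in stem against leaf (adjusted p = 0.343) by the same exact permutation test. The smallest raw p these numbers allow is 0.0286, so no single comparison could pass alone after adjustment.

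Arrays of 1 tissue disagreed much more about FD than about AGL24. The residual SD within tissues was 0.81 log2 units for FD and 0.22 for AGL24, against a median of 0.32 over all tested probe sets. A larger residual SD was found for 2.64% of tested probe sets in the case of FD and for 79.4% in the case of AGL24. FD was also the dimmer signal, and 89.5% of tested probe sets had a higher mean log2 intensity than the FD probe set. Without stem replicate 3 the residual SD of FD was 0.52, and 15.0% of tested probe sets had a larger one. FD then averaged 160.0 ± 82.9 in stem (SD, n = 3).

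The FD signal of 9.74 in stem replicate 3 stood beside the highest 3'/5' ratios of the series, 12.2 for actin, 13.0 for GAPDH and 2.72 for ubiquitin. Flower replicate 3 had the lowest FD value of the flower arrays (54.3). Its actin (8.23) and GAPDH (5.45) ratios were the next highest, but its ubiquitin ratio (1.97) was the lowest of the flower arrays. Leaf replicate 1 had the lowest FD value of the leaf arrays (50.7). Its actin ratio (1.83) was the lowest of the series, but its GAPDH (2.61) and ubiquitin (1.62) ratios were the highest of the leaf arrays. AGL24 was not at the low end in either of the arrays with the highest actin ratios, at 372.5 in stem replicate 3 and 126.9 in flower replicate 3. The part of RNA quality in the FD values was not tested.

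The named genes most like AGL24 across the 11 arrays were genes with the same order of tissues. The comparison covered 1330 probe sets with a gene symbol, whose median Pearson's r with AGL24 was 0.0518. These r values describe 11 arrays in 3 tissue clusters and carry no p. PRA1.E (AT1G08770), a prenylated Rab acceptor of membrane traffic, had r = 0.951. PMEPCRF (AT5G53370), a pectin methylesterase, had r = 0.948, and BGLU25 (AT3G03640), a β-glucosidase family member, r = 0.946. ATSBT5.2 (AT1G20160), a subtilase, had r = 0.937 and PHOS34 (AT4G27320), r = 0.933. Having been chosen on the same arrays, these genes share the tissue order of AGL24 by selection. As a description, the log2 difference of flower less stem was -1.37 for PRA1.E, -4.37 for PMEPCRF, -1.84 for BGLU25, -2.26 for ATSBT5.2 and -0.65 for PHOS34. The likeness lay between tissues more than within them. After each tissue's mean had been taken off, r was 0.25 for PRA1.E, -0.14 for PMEPCRF, 0.53 for BGLU25, 0.14 for ATSBT5.2 and 0.55 for PHOS34.

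The named genes most like FD were chosen from 1330 on the same 11 arrays, where the median r with FD was -0.00816. Having been chosen this way, they share its variation between arrays by selection. As a description, r was 0.840 to 0.876 after each tissue's mean had been taken off, with stem replicate 3 included. UBP19 (AT2G24640), a ubiquitin-specific protease, had r = 0.865, and FBL17 (AT3G54650), an F-box protein of the cell cycle, r = 0.836. The plastid-encoded genes rpl36, of the plastid ribosome, and petB, of the cytochrome b6f complex, had r = 0.830 and 0.822. OSB1 (AT1G47720), an organelle single-stranded DNA-binding protein, had r = 0.819. All 5 had their lowest value in stem replicate 3, the array with FD at 9.74, and a choice by correlation with FD favours genes low in that array. There OSB1 was at 26.8 and petB at 7941, with the other 10 arrays at 133.5 to 353.4 for OSB1 and 26640 to 39644 for petB. Without that array r was 0.813 for UBP19, 0.735 for petB, 0.670 for FBL17, 0.632 for rpl36 and 0.572 for OSB1. The 5 were called in none of the 3 tissue contrasts (petB was, at -1.21 in flower against leaf, with median centring).

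**Figure D4:**
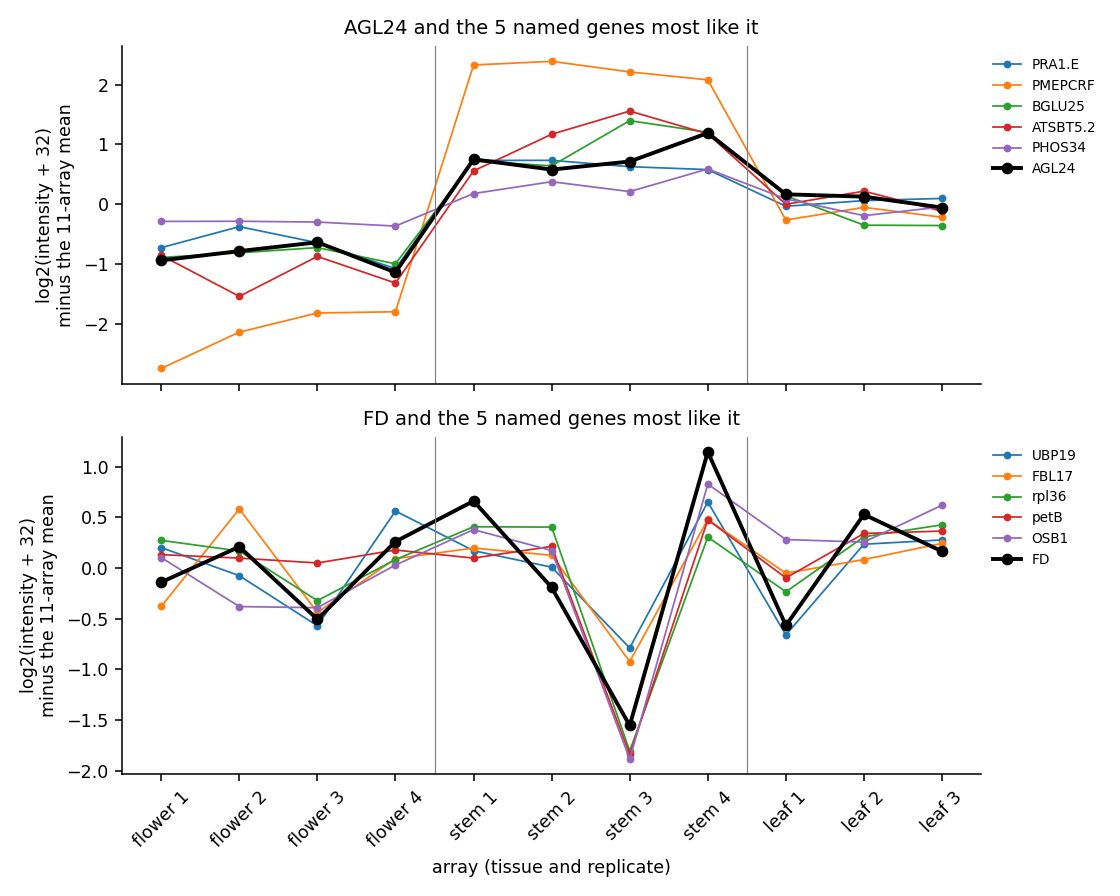
Log2(intensity + 32) of AGL24 (upper panel, black) and FD (lower panel, black) in each array, less the mean over the 11 arrays, with the 5 named genes most like each; vertical lines part the tissues. The AGL24 group steps with tissue, and the FD group drops together in stem replicate 3. The genes were chosen on these same arrays, so both likenesses arise by selection.

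Greenhouse and growth chamber arrays were compared at equal tissue in the 10 arrays with 1 stated site, 5 from each. AGL24 differed by -0.03 ± 0.17 (SE) log2 units with greenhouse over growth chamber (adjusted p = 0.962 in limma; interval -0.41 to 0.34). FD differed by -0.32 ± 0.41 (SE; adjusted p = 0.811 in limma), with an interval of -1.22 to 0.58. The scaling factors of replicates 2 and 3 of stem and flower matched the other array of the pair. With the sites of these replicates exchanged, FD was at 0.573 and AGL24 at -0.155 log2 units. With sites as labelled, 0 of 17526 probe sets (0%) were called, and 11.1% had an unadjusted p under 0.05 in limma. The test of site by tissue passed for 0.736% of probe sets, and neither AGL24 (adjusted p = 0.966) nor FD (adjusted p = 0.240 in limma) was among them. Within sites, the AGL24 difference of flower less stem was -1.60 in the greenhouse (2 flower arrays and 1 stem array) and -1.52 in the growth chamber (2 and 2), on the log2 scale. For FD the same difference was 1.43 in the greenhouse, whose single stem array is stem replicate 3, and -0.20 in the growth chamber. In flower less leaf, AGL24 stood at -0.92 in the greenhouse (2 flower and 2 leaf arrays) and -1.025 in the growth chamber (2 and 1). FD stood at -0.47 in the greenhouse and 0.60 in the growth chamber. In stem less leaf, AGL24 stood at 0.68 in the greenhouse (1 stem array, replicate 3, and 2 leaf arrays) and 0.50 in the growth chamber (2 and 1). FD stood at -1.90 in the greenhouse and 0.80 in the growth chamber, so each of these values rests on a single array on one side.

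Few other genes of the flowering pathway could be read by name. Of 53 further flowering genes listed by locus, 6 had a probe set paired with that gene alone, and 5 of these were tested. With AGL24 and FD, 7 flowering genes were tested. Of these, 0 were higher and 1 was lower in each contrast (14.3%), beside 18.5%, 18.7% and 18.0% of all tested probe sets called in flower against leaf, stem against leaf and flower against stem. The lower one was SNZ in both contrasts with leaf and AGL24 in flower against stem. SNZ passed the signal filter through its leaf arrays alone, so its calls, and with them the 14.3% in both contrasts with leaf, carry no weight. The medians of the 7 were -0.25 in flower against leaf, -0.03 in stem against leaf and -0.20 in flower against stem, beside -0.02, -0.04 and -0.03 for all tested probe sets. The sign of these medians turned with the scaling, at 0.54, 0.45 and 0.03 with arrays scaled to GapC, where the medians of all probe sets were 0.70, 0.46 and 0.17.

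SNZ, an AP2-type repressor of flowering, was highest in leaf. Its normalised intensity was 25.2, 26.8, 7.46 and 12.9 in flower, 7.32, 23.0, 17.6 and 40.7 in stem, and 222.0, 359.7 and 467.8 in leaf replicates 1 to 3. The arrays of leaf lay far above all others. Every flower and stem array of SNZ lay under the signal minimum, so no test of its difference from leaf is given. SMZ, its close relative, averaged 76.2 ± 26.7 in flower (SD, n = 4), 127.3 ± 7.56 in stem (SD, n = 4) and 131.9 ± 56.0 in leaf (SD, n = 3) and was not called.

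LD, a homeodomain protein of the autonomous flowering pathway, was not called, though close to the minimum fold. It averaged 433.6 ± 46.1 in flower (SD, n = 4), 236.4 ± 62.0 in stem (SD, n = 4) and 424.3 ± 72.0 in leaf (SD, n = 3). Its difference was 0.82 log2 units in flower against stem (adjusted p = 0.00383 in limma) and -0.78 in stem against leaf (adjusted p = 0.00839). With arrays scaled to GapC or to the trimmed mean alone, the flower against stem difference was 1.07 and 1.04 and was called. FY is an RNA 3' end processing factor of the same pathway, and GI belongs to the photoperiod pathway. After quantile normalisation both had adjusted p-values of at least 0.153 in limma in every contrast. With GapC scaling, GI was at 0.67 in flower against leaf (adjusted p = 0.0248 in limma) and FY at 0.54 (adjusted p = 0.0563). Neither was called there, and the median of all tested probe sets was 0.70. ATC, of the FT and TFL1 family, was at 6.81 to 46.3 in every array and was not tested.

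**Figure D5:**
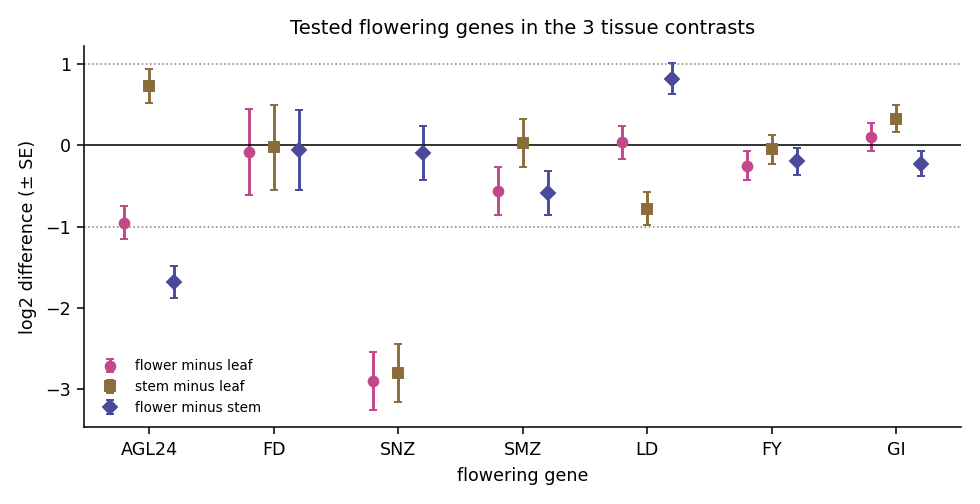
Log2 differences (± SE) of the 7 tested flowering genes in the 3 tissue contrasts, with dotted lines at 1 log2 unit. SNZ lies near -2.895 and -2.80 in the contrasts with leaf, AGL24 at -1.68 in flower minus stem, and every other point lies within 1 log2 unit. SNZ passed the signal filter through its leaf arrays alone, so its points in the contrasts with leaf carry no weight.

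FD was the single tested gene of 11 listed for the bZIP clade it belongs to, since EEL, the other one with a named probe set, missed the signal minimum. None of the 12 listed 14-3-3 genes and none of the 10 floral organ identity genes had a probe set paired with it alone. Among 11 tested probe sets with a bZIP symbol, 2 (bZIP44 and BZIP53) were higher in flower than in leaf and 3 (these and BZIP61) were higher in stem than in leaf. Between flower and stem 1 (bZIP44) was higher and 1 (bZIP42) lower. The shares called were 18.2% in flower against leaf, 27.3% in stem against leaf and 18.2% in flower against stem, beside 18.5%, 18.7% and 18.0% of all tested probe sets. bZIP44 rose by 3.28 log2 units in flower against leaf and by 1.33 in flower against stem (adjusted p = 2.5e-08 and 4.2e-05 in limma). The named bZIP genes were picked out after their values had been seen. bZIP42 fell by 1.21 log2 units in flower against stem (adjusted p = 0.00924 in limma). BZIP61 was close to the limit in stem against leaf (adjusted p = 0.0491 in limma). Its leaf arrays (10.3 to 397.4) overlapped its stem arrays (105.9 to 624.0). The bZIP counts depended on the scaling. With GapC scaling 4 of 10 were higher in flower than in leaf and 7 of 10 in stem than in leaf. The medians of all tested probe sets were then 0.70 and 0.46. With median centring 1 of 10 was higher in flower than in leaf. The flower against stem calls of bZIP42 and bZIP44 moved as well. bZIP42 stood at -0.92 with GapC scaling and -0.96 with trimmed mean scaling, and bZIP44 at 0.92 with median centring, each under the minimum fold.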

How the data were processed

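Signal intensity on ATH1 arrays was made by the authors with Affymetrix Microarray Suite 5.0 at a target of 500, per the labels. The labels also give a factor that sets GapC to 8500. The deposited intensity does not carry it, since each column had a 2% trimmed mean of 500, and multiplying its GapC signal by that factor gave 8500, to within 1 unit, for 7 of 11 arrays. Detection calls and depth are not given in the sources used here, and the number of arrays limits the precision.

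From these values, arrays were set to a 2% trimmed mean of 500, quantile normalised and put on the scale log2(value + 32). After removal of 64 control probe sets, 17526 probe sets were tested, those that reached a signal of 100 in 3 arrays or more. A single fit to the 11 arrays gave the tissue contrasts, in limma 3.58.1 (R 4.3.3; lmFit, eBayes with trend, two-sided, Benjamini-Hochberg). The site fit had tissue as a covariate in 10 arrays. Single values were tested with exact permutation tests over arrays. The fits were tested on simulated data.

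The probe table of the platform gave gene names, with 13513 probe sets paired with 1 gene, 503 with several and 8730 with none, and locus tags from a TAIR10.1 gene table, which matched 13436. The members and gene lists were chosen with earlier results of these data known. Named genes are AGL24, FD, list genes with a probe set of their own, and the 5 named genes with the highest Pearson's r with each, others being stated as picked later. Same-numbered replicates of different tissues had correlations of -0.161 to 0.15 in their deviations from tissue means, over 0.1 in 3 of 10 pairs, so numbers were not taken as pairs. The alternatives were other scalings, pseudocounts, filters, eBayes without trend, any fold, a site covariate, a replicate block, a fit to the 2 tissues alone, other site assignments and leaving out each array. Counts for 1 further gene family are not reported here.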

Additional observations from a re-analysis of the deposited data

Results flagged for a closer look

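FD is the result to look at again for growth site. The greenhouse leaf arrays (105.3 and 144.7) lay above the growth chamber leaf array (50.7), whereas the greenhouse stem array (9.74) lay under the growth chamber stem arrays (75.3 and 161.7), all as normalised intensity. The greenhouse arrays with 1 stated site thus lay above the growth chamber in leaf and under it in stem, while in flower the sites overlapped (54.3 and 114.8 in the greenhouse, 79.2 and 109.7 in the growth chamber). Stem replicate 4, greenhouse by its title code alone, was at 239.0, above both growth chamber stem arrays. In limma the test of site by tissue gave an unadjusted p of 0.0187 and an adjusted p of 0.240, so the difference did not pass. The adjusted p was 0.896 with stem replicate 4 as greenhouse, 0.199 with it as growth chamber, and 0.968 with the sites of replicates 2 and 3 of stem and flower exchanged. Of all probe sets, 0.736% passed the test as first given. Each of these tissues has 1 array in one of the sites, and the greenhouse stem array is stem replicate 3, with the highest 3'/5' ratios. AGL24 had an adjusted p of 0.966 in the same test.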

How the results depend on the processing

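AGL24 in flower against stem stayed called, lower in flower, under all 24 alternatives (-1.95 to -1.30 log2 units). The highest adjusted p in limma was 1.7e-04, with GapC scaling, and the exact permutation test gave an unadjusted p of 0.0286. AGL24 in flower against leaf passed the threshold with a pseudocount of 1 (-1.15) and with no minimum fold (-0.952), and leaving out 1 array gave -1.025 to -0.867, past it without leaf replicate 3 or flower replicate 3. AGL24 in stem against leaf passed it with GapC scaling (1.24) and with no minimum fold (0.729). The sign of FD was not stable, and in no alternative did FD pass the threshold. In flower against leaf it was 0.645 with GapC scaling and 0.199 with trimmed mean scaling, and -0.390 to 0.157 without 1 array. In stem against leaf it was 0.445 with GapC scaling, 0.045 with trimmed mean scaling, 0.052 with median centring and 0.050 with a pseudocount of 100, and -0.406 to 0.499 without 1 array. In flower against stem it was 0.200 with GapC scaling, 0.154 with trimmed mean scaling, 0.207 with a pseudocount of 1 and 0.370 with site as a covariate, and -0.586 to 0.320 without 1 array. For greenhouse over growth chamber, AGL24 was 0.021 with GapC scaling and 0.065 with stem replicate 4 as greenhouse, and -0.119 to 0.048 without 1 array. FD was 0.005 with stem replicate 4 as greenhouse and 0.573 with the sites of replicates 2 and 3 of stem and flower exchanged, and -0.811 to 0.271 without 1 array. Called probe sets in flower against leaf numbered 5678 with GapC scaling (89.5% higher, against 49.7%) and 5613 with no minimum fold, beside 3234. With no minimum fold they numbered 6039 in stem against leaf, beside 3274, and 6221 in flower against stem, beside 3146. GapC scaling also gave 85.7% higher in stem against leaf and 66.0% in flower against stem, and median centring 39.1% in flower against leaf and 39.4% in flower against stem. With the replicate block, AGL24 was -1.68 in flower against stem (adjusted p = 1.5e-04 in limma), -0.97 in flower against leaf and 0.71 in stem against leaf, no call of AGL24 or FD changed, and 3165, 3178 and 3275 probe sets were called in those contrasts. The causes of these shifts were not tested. FD was too dim to be tested at a signal minimum of 200, and the site by tissue test could not be fitted without leaf replicate 1 or stem replicate 3. The difference of AGL24 less FD passed in none of 16 alternatives, but with these numbers of arrays no single comparison could pass alone after adjustment. The scalings of the gene lists were added after the data had been seen.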
